A study of Mus musculus with 6 samples.

Results

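A set of 10 genes of the Notch pathway, 3 receptors (Notch1, Notch2, Notch3), 3 ligands (Dll1, Dll3, Jag1) and 4 genes of the Hes and Hey families (Hes1, Hes5, Hes6, Hey1), were followed by gene symbol through RNA-seq of primary mouse motoneuron cultures. Each symbol matched 1 of the 39174 genes in the tables, so 10 of 10 members were found. The cultures came from mice of a strain labelled CD-1 and fell into 2 genotypes, Nmd+/+ and Nmd-/-, with 3 libraries each, numbered 1 to 3. The nmd allele is a mutation of the helicase gene Ighmbp2, and the study's title calls the mutant motoneurons Ighmbp2-deficient. No treatment, time in culture or age is given for either genotype, and no label says whether replicates came from separate embryos. The p-values therefore measure the spread between these libraries, which may be technical in part.

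Notch signalling passes between touching cells. A Delta or Jagged ligand on one cell binds a Notch receptor on its neighbour, the receptor is cleaved, and its intracellular part enters the nucleus, where it joins the DNA-binding protein RBPJ and switches on Hes and Hey genes. Hes1 and Hes5 are repressors that keep neural progenitors of the embryonic spinal cord from becoming neurons, while cells that leave the progenitor state express Delta ligands and so hold their neighbours back.

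Values are FPKM, fragments scaled for transcript length and for the size of the library, which allow levels of different genes to be set side by side. Between 14474 and 14645 genes reached 1 FPKM in a library, and the widths of the deposited intervals corresponded to between 15376295 and 23063074 fragments per library. Mitochondrially encoded genes held 19.5%, 22.4% and 26.6% of the summed FPKM in Nmd+/+ replicates 1 to 3. In Nmd-/- replicates 1 to 3 they held 19.3%, 19.2% and 23.5%. The part of this share in the values below was not tested. Ighmbp2 measured 1.44, 1.303 and 1.09 FPKM in Nmd+/+ replicates 1 to 3 and 0.876, 0.788 and 0.598 FPKM in Nmd-/- replicates 1 to 3, so the groups did not overlap and the order went with the genotype labels. Of 7 motoneuron markers found, only Isl1 reached a mean of 1 FPKM, and Chat stayed at or below 0.0692 FPKM, whereas 9 of 9 progenitor and radial glia markers and 8 of 8 markers of postmitotic neurons did so. The 7 fibroblast genes summed to 143 FPKM (Nmd+/+) and 176 FPKM (Nmd-/-) in the libraries numbered 2, and to between 3.44 and 4.11 FPKM in the other 4. Each level below is that of a whole culture, in which fewer cells of a type and less RNA per cell cannot be told apart.

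All 10 genes were expressed. Their mean levels over the 6 libraries ran from 32.2 FPKM for Notch1 to 3.12 FPKM for Jag1, and each passed the filter of a mean of at least 1 FPKM. In descending order of the mean level they were Notch1 (32.2 FPKM), Hes1 (23.9), Notch2 (21.2), Dll1 (15.8), Dll3 (13.6), Hes6 (13.2), Hey1 (8.50), Notch3 (6.19), Hes5 (3.87) and Jag1 (3.12). The ranges of each pair of neighbours in that order overlapped. Within libraries the order was firmer at 4 steps, since Dll1 exceeded Dll3, Hes6 exceeded Hey1, Hey1 exceeded Notch3 and Notch3 exceeded Hes5 in 6 of 6 libraries. Dll3 exceeded Hes6 in 3 of 6, and Hes1 exceeded Notch2 in 4 of 6, as Hes5 did Jag1. Against the 14611 genes tested, the mean level of Notch1 lay above 77.9% and that of Jag1 above 18.1%.

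**Figure D1:**
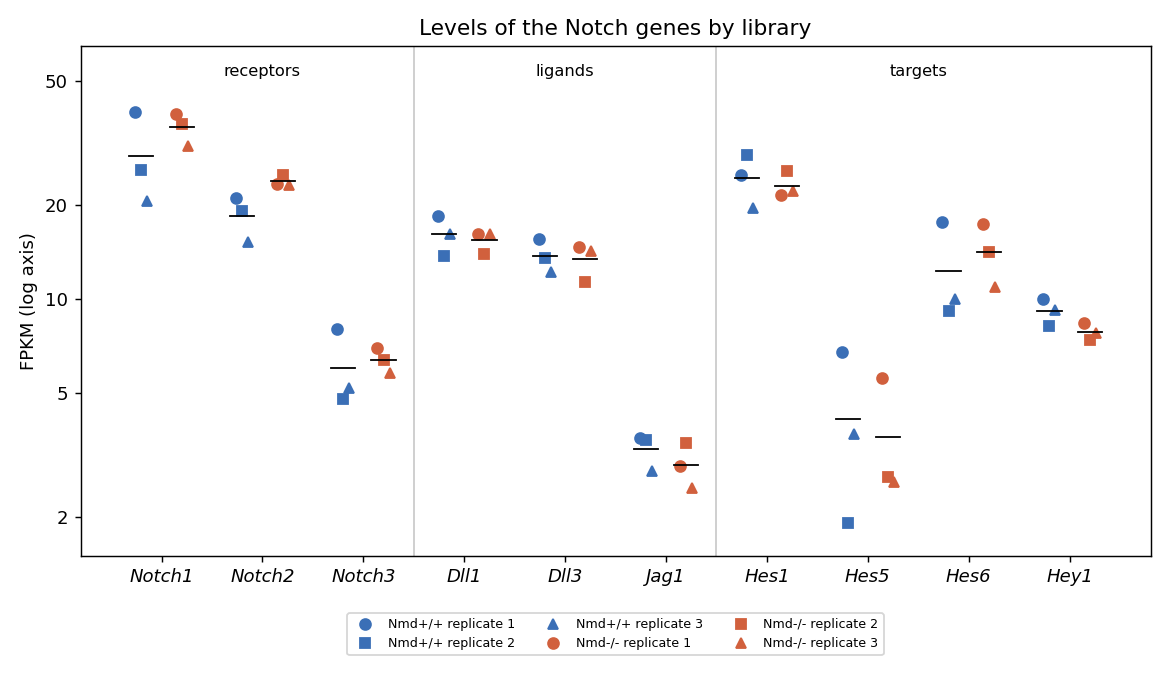
FPKM of each gene (vertical log axis) in the 3 Nmd+/+ libraries (blue) and the 3 Nmd-/- libraries (orange). The marker shape gives the replicate number and the black bar the mean of a group. Notch2 is the gene whose groups do not overlap, and Hes5 spans the widest range, from 1.92 to 6.76 FPKM.

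No member differed between genotypes beyond the test's threshold. In limma on log2(FPKM + 1) over 14611 genes, 0 of 10 members had an adjusted p under 0.05, as for 0% of all genes tested, and each had adjusted p = 0.9997. At an unadjusted p under 0.05 there was 1 member, Notch2, beside 0.445% of all genes tested. With the replicate number as a block, which compares same-numbered libraries, there were 2 (Notch1 and Notch2) beside 4.87%, and 0 passed after adjustment. The log2 differences, Nmd-/- minus Nmd+/+, lay between -0.20 (Hey1) and 0.36 (Notch2), with a median of -0.04 against 0.02 for all genes tested. Mean log2 values were higher in Nmd-/- for the 3 receptors and Hes6 and lower for the 3 ligands, Hes1, Hes5 and Hey1. That count of 4 higher became 7 without Nmd+/+ replicate 1, and also 7 without Nmd-/- replicate 2.

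Notch2, a receptor of progenitors and glia, was the one member whose groups did not overlap. It lies on chromosome 3, 98013538 to 98150367 (GRCm38, plus strand). It measured 21.2, 19.1 and 15.3 FPKM in Nmd+/+ replicates 1 to 3 and 23.4, 24.99 and 23.2 FPKM in Nmd-/- replicates 1 to 3. Every Nmd-/- value was above every Nmd+/+ value, with Nmd+/+ replicate 3 the lowest of all. Such separation toward higher values in Nmd-/- held for 1.76% of all genes tested. No member was separated toward lower values, as 0.91% of all genes were. With a library left out, separation in either direction was more frequent over all genes. Without Nmd+/+ replicate 1 it held for 4 of 10 members beside 18.2% of all genes. It held for 2 of 10 without Nmd+/+ replicate 2 (19.2% of all genes), Nmd+/+ replicate 3 (4.48%) or Nmd-/- replicate 1 (6.28%). The means were 18.5 ± 3.0 and 23.9 ± 1.0 FPKM (SD, n = 3 each), a ratio of 1.29, and the log2 difference was 0.36 (SE 0.15, unadjusted 95% interval 0.01 to 0.71; limma adjusted p = 0.9997, exact two-sided permutation p = 0.1, the smallest that 3 against 3 can give). By replicate number the difference was 0.14, 0.37 and 0.57. With the replicate number as a block its SE was 0.12 and the unadjusted 95% interval ran from 0.10 to 0.62 (limma adjusted p = 0.944). The Cufflinks intervals of the same-numbered libraries, which cover estimation error only, lay apart in 3 of 3 pairs. For Notch1, Notch3 and Hey1 they lay apart in 2 of 3, and the share over all genes was not computed. Relative to its level, Notch2 had the narrowest intervals of the 10 genes. Their widths corresponded to between 6258 and 12463 fragments per library, which is not a count of fragments.

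Notch1, the most abundant receptor and the main one of spinal progenitors, lies on chromosome 2, 26457903 to 26516663 (minus strand). It measured 39.8, 26.0 and 20.7 FPKM in Nmd+/+ replicates 1 to 3 and 39.4, 36.6 and 31.1 FPKM in Nmd-/- replicates 1 to 3. Both libraries numbered 1 were high and nearly equal, while the Nmd-/- library was the higher of each pair numbered 2 and 3, so the groups overlapped. The means were 28.8 ± 9.9 and 35.7 ± 4.2 FPKM (SD, n = 3 each), and the log2 difference was 0.34 (SE 0.24; limma adjusted p = 0.9997, exact permutation p = 0.4). With the replicate number as a block its SE was 0.13 and the unadjusted 95% interval ran from 0.06 to 0.63, with adjusted p = 0.990. The transcript 0610009E02Rik of the opposite strand, which overlaps Notch1, lay between 10.5 and 15.8 FPKM. Whether strand was used in counting is not given in the sources used here, so reads of the overlap may have been shared.

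Notch3, a receptor best known from vascular mural cells and also made by progenitors, lies on chromosome 17, 32120820 to 32166880 (minus strand). It measured 8.03, 4.78 and 5.18 FPKM in Nmd+/+ replicates 1 to 3 and 6.99, 6.36 and 5.77 FPKM in Nmd-/- replicates 1 to 3. The Nmd-/- values lay inside the range of the Nmd+/+ values, and the log2 difference of 0.10 (SE 0.19) was within the spread between replicates. Without Nmd+/+ replicate 2 it was -0.023. Of the 7 markers of pericytes and smooth muscle, 3 had a mean of at least 1 FPKM: Acta2 (1081 to 3794 FPKM), Tagln (311 to 781 FPKM) and Pdgfrb (0.397 to 2.996 FPKM). Rgs5, Kcnj8 and Abcc9 did not exceed 0.747, 0.0287 and 0.0665 FPKM. The 7 genes summed to between 1393 and 4271 FPKM in Nmd+/+ and between 2109 and 4580 FPKM in Nmd-/-, highest in the libraries numbered 2, and their part in the Notch3 values was not tested. Within each library the receptors kept a stable order: Notch1 made up between 50.2% and 57.7% of their summed FPKM, Notch2 between 30.7% and 38.7%, and Notch3 between 9.37% and 12.6%.

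The summed level of the 3 receptors was 53.3 ± 14.2 FPKM in Nmd+/+ and 65.9 ± 5.1 FPKM in Nmd-/- (SD, n = 3 each). Markers of progenitors and of dividing cells differed between the same libraries. The 9 progenitor genes, of which Vim held most, summed to between 3263 and 4465 FPKM in Nmd+/+ and between 4137 and 5134 FPKM in Nmd-/-, with log2 ratios of -0.04, 0.20 and 0.41 by replicate number. Averaged over the 9 genes, each weighted alike, the differences were -0.11, 0.08 and 0.18, and 2, 7 and 5 of the 9 were higher in Nmd-/-. The 7 genes of dividing cells summed to between 307 and 474 FPKM in Nmd+/+ and between 375 and 469 FPKM in Nmd-/-, with log2 ratios of 0.09, -0.12 and 0.61. The part of these markers in the receptor values was not tested.

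**Figure D2:**
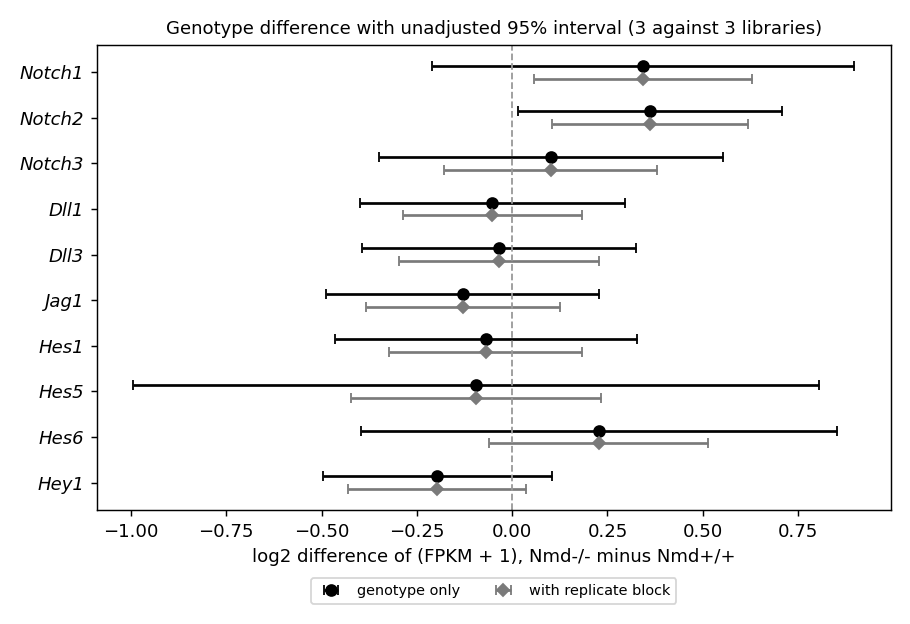
Log2 difference of (FPKM + 1) between genotypes for each gene, with its unadjusted 95% interval from limma without (black circles) and with (grey diamonds) the replicate number as a block. The black interval of Notch2 is the one that does not include 0, with bounds of 0.01 and 0.71.

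The ligands differed little between libraries and genotypes. Dll1, the Delta ligand that activates Notch in neighbouring progenitors, lies on chromosome 17, 15367354 to 15376872 (minus strand). It measured 18.5, 13.8 and 16.1 FPKM in Nmd+/+ replicates 1 to 3 and 16.2, 13.9 and 16.2 FPKM in Nmd-/- replicates 1 to 3. The libraries numbered 2 were the lowest of both genotypes, and in pairs 2 and 3 the genotypes differed by no more than 0.02 on the log2 scale. The overall log2 difference was -0.05 (SE 0.15, unadjusted 95% interval -0.40 to 0.30). Leaving out Nmd+/+ replicate 1 gave 0.047, and leaving out Nmd-/- replicate 2 gave 0.017.

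Dll3, a Delta family member that does not activate Notch on other cells and acts within the cell that makes it, lies on chromosome 7, 28293553 to 28302238 (minus strand). It measured 15.6, 13.5 and 12.2 FPKM in Nmd+/+ replicates 1 to 3 and 14.6, 11.4 and 14.3 FPKM in Nmd-/- replicates 1 to 3. The libraries numbered 1 were the highest of each genotype, and the groups overlapped. The replicate number held 58.1% of the sum of squares of log2 values and genotype 1.45%, while the test between numbers was not passed (limma adjusted p = 0.321), and the log2 difference between genotypes was -0.04 (SE 0.15, unadjusted 95% interval -0.39 to 0.32). Leaving out Nmd+/+ replicate 1 gave 0.053, leaving out Nmd-/- replicate 2 gave 0.072, and leaving out both libraries numbered 2 gave 0.063. The ratio of Dll1 to Dll3 stayed between 1.02 and 1.32 in the 6 libraries.

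Jag1, the Jagged ligand, was the lowest of the 10 genes (chromosome 2, 137081456 to 137116644, minus strand). It measured 3.59, 3.52 and 2.80 FPKM in Nmd+/+ replicates 1 to 3 and 2.90, 3.45 and 2.47 FPKM in Nmd-/- replicates 1 to 3. The Nmd-/- library was the lower of each pair, by 0.24, 0.02 and 0.13 in size on the log2 scale, but the groups overlapped. The log2 difference was -0.13 (SE 0.15; limma adjusted p = 0.9997, exact permutation p = 0.4). Dll1 exceeded Jag1 between 3.91-fold and 6.57-fold within a library, and the 3 ligands together reached 33.2 ± 3.9 FPKM in Nmd+/+ and 31.8 ± 2.7 FPKM in Nmd-/- (SD, n = 3 each).

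Among the Hes and Hey genes, Hes1 and Hes5 followed different orders over the libraries. Hes1 (chromosome 16, 30064384 to 30067796, plus strand) encodes a repressor that Notch activates in many tissues. It measured 25.1, 29.0 and 19.6 FPKM in Nmd+/+ replicates 1 to 3 and 21.6, 25.7 and 22.2 FPKM in Nmd-/- replicates 1 to 3, highest in the libraries numbered 2 of both genotypes. Hes5 (chromosome 4, 154960923 to 154962371, plus strand) encodes the related repressor that is largely restricted to the nervous system. It measured 6.76, 1.92 and 3.68 FPKM in Nmd+/+ replicates 1 to 3 and 5.59, 2.68 and 2.59 FPKM in Nmd-/- replicates 1 to 3, highest in the libraries numbered 1. The ratio of Hes1 to Hes5 was 3.71 and 3.86 in the Nmd+/+ and Nmd-/- libraries numbered 1, 15.1 and 9.60 in the libraries numbered 2, and 5.33 and 8.55 in those numbered 3.

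Between genotypes both genes stayed within the spread of the replicates. The log2 difference of Hes1 was -0.07 (SE 0.17), and it turned to 0.055 without Nmd+/+ replicate 2. That of Hes5 was -0.09 (SE 0.38, unadjusted 95% interval -0.995 to 0.81), the widest interval of the 10. With the replicate number as a block the SE of Hes5 was 0.15 and the unadjusted 95% interval ran from -0.42 to 0.23. Leaving out Nmd+/+ replicate 1 gave 0.26, Nmd-/- replicate 2 gave 0.040, and Nmd-/- replicate 3 gave 0.057. The interval widths of Hes5 corresponded to between 57.5 and 340 fragments per library, and the lower value was the smallest of any member. Gm20421, a transcript on the other strand that overlaps Hes5, lay between 0.708 and 2.28 FPKM.

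Hes6 (chromosome 1, 91411483 to 91414038, minus strand) is a family member that opposes Hes1 and is made by cells turning into neurons. It measured 17.7, 9.16 and 10.005 FPKM in Nmd+/+ replicates 1 to 3 and 17.5, 14.1 and 10.95 FPKM in Nmd-/- replicates 1 to 3. The libraries numbered 1 were the highest and nearly equal, the largest gap between genotypes lay in pair 2 (0.57 on the log2 scale), and the groups overlapped. The log2 difference was 0.23 (SE 0.27; limma adjusted p = 0.9997, exact permutation p = 0.6).

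Hey1 (chromosome 3, 8663362 to 8667039, minus strand) encodes a repressor of the Hey family, which Notch also activates. It measured 10.03, 8.23 and 9.21 FPKM in Nmd+/+ replicates 1 to 3 and 8.36, 7.41 and 7.78 FPKM in Nmd-/- replicates 1 to 3. Each Nmd-/- library was lower than its same-numbered partner, while Nmd-/- replicate 1 lay just above Nmd+/+ replicate 2, so the groups overlapped. The means were 9.16 ± 0.90 and 7.85 ± 0.48 FPKM (SD, n = 3 each), a ratio of 0.857, and the log2 difference was -0.20 (SE 0.13; limma adjusted p = 0.9997, exact permutation p = 0.2). Jag1 and Hey1 were the 2 of 10 members lower in Nmd-/- in 3 of 3 pairs, which held for 10.6% of all genes tested, and Notch2 was the one higher in 3 of 3 pairs, as were 14.9%.

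**Figure D3:**
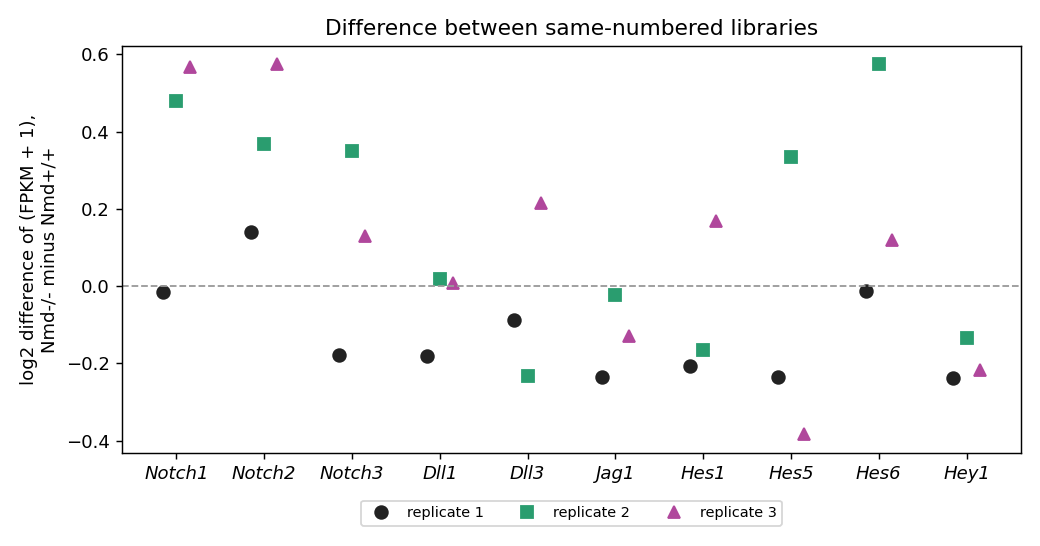
Log2 difference of (FPKM + 1), Nmd-/- minus Nmd+/+, between the libraries of the same replicate number, for each gene. Notch2 lies above 0 in all 3 pairs (0.14, 0.37 and 0.57), Jag1 and Hey1 lie below 0 in all 3, and the other 7 genes have pairs on both sides.

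The replicate number separated the libraries more than genotype did. In limma with genotype and number as terms, 3 of 10 members differed between numbers at an adjusted p under 0.05, beside 28.6% of all genes tested, so the share of members was near that of the transcriptome. They were Hes5 (adjusted p = 0.00504), Hes6 (0.0186) and Notch1 (0.0368). The labels do not say what a number marks, and each number has 2 libraries, 1 of each genotype.

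Each of these 3 genes was highest in the libraries numbered 1. Hes5 differed by -1.13 (SE 0.18) between numbers 2 and 1 and by -0.80 (SE 0.18) between numbers 3 and 1, on the log2(FPKM + 1) scale. Hes6 differed by -0.58 and -0.70 (SE 0.16 each), and Notch1 by -0.35 and -0.62 (SE 0.16 each). Of the 4173 genes that passed over all genes, 48.6% were likewise lower in both numbers 2 and 3 than in number 1. Hes1 went the other way between numbers 2 and 1, at 0.22 (SE 0.14), but did not pass (limma adjusted p = 0.138). Of the sum of squares of log2 values over the 6 libraries, number held 89.5% for Hes5 and genotype 0.898%. For Notch2 genotype held 64.0% and number 20.5%, and for Hey1 56.0% and 41.1%. The medians over the 10 members were 71.5% for number and 7.97% for genotype, against 73.2% and 5.23% over all genes tested. There are 3 numbers and 2 genotypes, so number tends to hold the larger share even where neither has an effect.

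Without both libraries numbered 2, Hes5, Hes6 and Notch1 still differed between numbers 3 and 1 (limma adjusted p = 0.00151, 0.0019 and 0.00881), and Notch3 passed as well (0.0443), which made 4 of 10 members beside 19.5% of all genes tested. With no filter on low values, 0 of 10 members and 0 of 27711 genes passed in limma, and 2 members had an unadjusted p under 0.05. With quantile normalization Notch1 did not pass (adjusted p = 0.061).

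Cell type markers differed between numbers too. The 8 genes of postmitotic neurons summed to 1620 and 1510 FPKM in the Nmd+/+ and Nmd-/- libraries numbered 1, 794 and 816 FPKM in the libraries numbered 2, and 1557 and 1207 FPKM in those numbered 3. Hes5 was lowest in Nmd+/+ replicate 2, where these neuronal genes had their lowest sum and fibroblast genes were high. Averaged over the 8 genes, the neuronal list lay at -0.567 there and at -0.571 in Nmd-/- replicate 2, around its mean on the log2 scale. Among Nmd-/- libraries Hes5 was lowest in replicate 3 (2.59 FPKM, against 2.68 FPKM in replicate 2). There the neuronal genes summed to 1207 FPKM and the fibroblast genes to 3.67 FPKM. The 9 progenitor genes moved less, by between -0.16 and 0.11 around their mean on the log2 scale. The part of cell makeup in the differences between numbers was not tested.

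**Figure D4:**
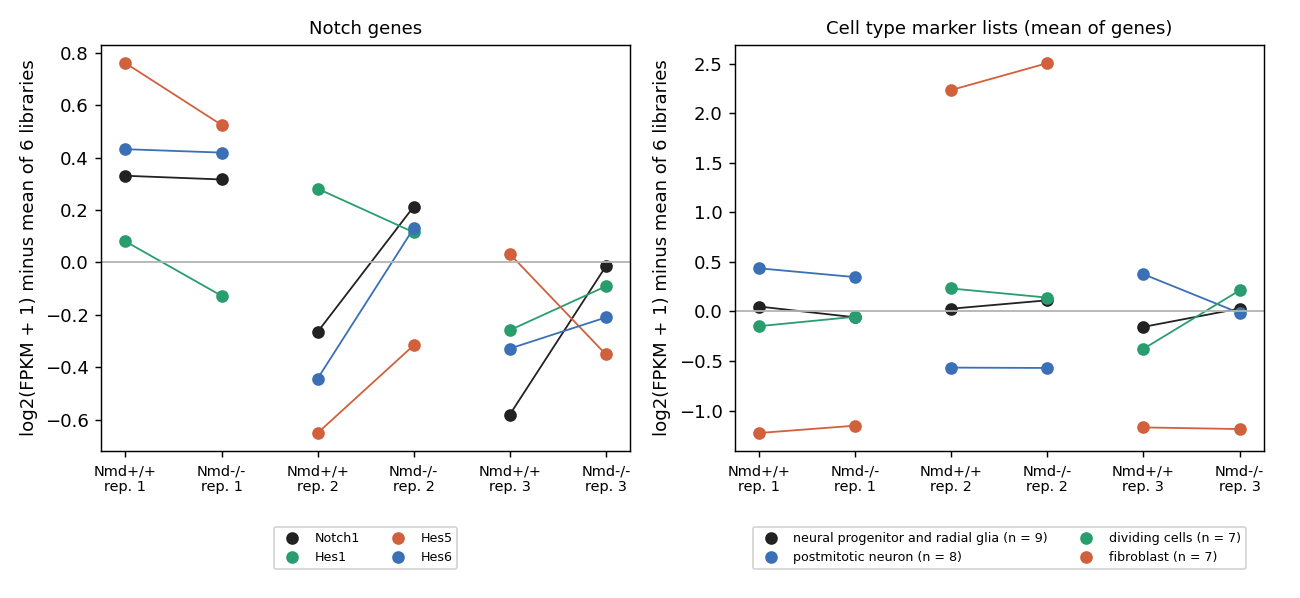
Log2(FPKM + 1) of Notch1, Hes1, Hes5 and Hes6 (left) and the mean over the genes of 4 marker lists (right) in each library, relative to the mean of the 6 libraries. Lines join the 2 libraries of one replicate number. Hes5, Hes6 and Notch1 are highest in both libraries numbered 1, and the fibroblast list is high in both libraries numbered 2.

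Genes with the most similar profile were found by the root mean square difference of centred log2(FPKM + 1) over the 6 libraries, among genes with a mean of at least 5 FPKM, for the receptor, ligand and target that varied most. Nearest to Notch1 were Cotl1 (difference 0.04), Crip2 (0.04) and Plk1 (0.05). Cotl1, for example, measured 172, 116 and 95.7 FPKM in Nmd+/+ replicates 1 to 3 and 184, 168 and 138 FPKM in Nmd-/- replicates 1 to 3. Nearest to Jag1 were Foxp1 (0.03), Arl13b (0.04) and Tmem106b (0.05). Nearest to Hes5 were Lin7b, BC018242 and Iglon5, at 0.10 each. This difference grows with a gene's own spread, whose SD over the libraries was 0.55 for Hes5, 0.36 for Notch1 and 0.16 for Jag1. Lin7b measured 10.3, 3.30 and 7.07 FPKM in Nmd+/+ replicates 1 to 3 and 9.33, 4.84 and 5.19 FPKM in Nmd-/- replicates 1 to 3.

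The upstream sequences of the members were read from RefSeq (GRCm38.p6), which held 8 of the 10. Those of the targets Hes1 and Hey1 were missing, so neither was searched. The 250 bases before the annotated start nearest the 5' end of the gene were searched on both strands for the RBPJ core TGGGAA, for the E box CANNTG, which proneural and other basic helix-loop-helix proteins bind, and for the N box CACNAG, which Hes proteins bind. The start used lay inside the gene by 12841 bases for Notch1, 453 for Dll3 and 124 for Jag1. The Dll3 and Jag1 windows overlap coding or untranslated sequence of a member. Matches were counted for each motif apart from the others, and a match is a description of letters, not a bound site. TGGGAA occurred in 1 of the 8 windows, that of Hes5, against 21.6% of 32851 windows of the same length over all genes. Hes5 held it at 2 positions, beginning 226 and 82 bases before the start, and 2.77% of all windows held 2 or more. CANNTG occurred in 5 of 8 (66.2% of all windows). CACNAG occurred in 3 of 8, those of Notch1, Notch2 and Notch3, a share near the 36.7% of all windows.

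Windows of 3 genes are shown, that of Hes5 for its RBPJ cores, and those of Hes6, which varied with Hes5 between numbers, and of Dll1, whose product starts the signal, for their E boxes. They are written 5′ to 3′ on the gene's strand and end at the base before the start. Capitals mark TGGGAA or its reverse complement in Hes5, and CANNTG in Hes6 and Dll1.
Hes5, chr4:154960673-154960922, plus strand: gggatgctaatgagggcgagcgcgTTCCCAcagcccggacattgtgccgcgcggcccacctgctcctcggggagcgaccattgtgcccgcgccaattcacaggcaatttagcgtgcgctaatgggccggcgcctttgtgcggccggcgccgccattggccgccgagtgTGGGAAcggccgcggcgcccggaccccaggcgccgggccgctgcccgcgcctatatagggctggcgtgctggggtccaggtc
Hes6, chr1:91414039-91414288, minus strand: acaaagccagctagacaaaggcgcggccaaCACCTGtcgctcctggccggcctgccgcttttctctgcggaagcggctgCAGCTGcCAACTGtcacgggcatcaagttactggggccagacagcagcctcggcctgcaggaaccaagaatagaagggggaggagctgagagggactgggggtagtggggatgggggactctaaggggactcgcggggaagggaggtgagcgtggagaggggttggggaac
Dll1, chr17:15376933-15377182, minus strand: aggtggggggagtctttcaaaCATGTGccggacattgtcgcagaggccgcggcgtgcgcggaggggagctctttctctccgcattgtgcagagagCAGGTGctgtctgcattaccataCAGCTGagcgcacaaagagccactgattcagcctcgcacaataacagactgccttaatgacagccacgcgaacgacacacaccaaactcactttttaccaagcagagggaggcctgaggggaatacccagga
The E boxes of Hes6 begin 220, 171 and 164 bases before its start and those of Dll1 229, 155 and 132 bases before it. Over all genes 31.8% of windows held CANNTG at 2 or more positions. The letters TGGGAA were in the Hes5 window and not in that of Hes6. The part of any of these letters in the differences between numbers was not tested.

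The rest of the pathway was read from a list of 56 genes, of which 47 passed the filter. Of these, 0 passed the test between genotypes in limma, with or without the replicate block, beside 0% of all genes tested; 0 had an unadjusted p under 0.05 without the block and 1 (Pofut1) had one with it. Mean log2 values were higher in Nmd-/- for 28 of 47, or 59.6%, against 56.0% of all genes tested, with a median log2 difference of 0.04 against 0.02. Under median-of-ratios scaling the shares were 57.4% of the 47 and 49.9% of all genes. In 0 of the 47 the genotypes did not overlap, against 2.67% of all genes. That count was 12, or 25.5%, without Nmd+/+ replicate 1 beside 18.2% of all genes. It was 6, or 12.8%, both without Nmd+/+ replicate 2 (19.2% of all genes) and without Nmd-/- replicate 3 (8.33%), and 1 without Nmd-/- replicate 2 (7.26%).

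The counts by role below stand beside 56.0% of all genes tested with a log2 difference above 0. The enzymes that add sugars to Notch had one above 0 for 5 of 5. Pofut1, which fucosylates the receptor, had the smallest p among them. It measured 8.99, 9.27 and 6.51 FPKM in Nmd+/+ replicates 1 to 3 and 10.2, 12.4 and 8.65 FPKM in Nmd-/- replicates 1 to 3, with a log2 difference of 0.31 (SE 0.18; limma adjusted p = 0.9997). The most abundant of them was Poglut1, at 21.5 ± 4.1 and 21.5 ± 1.4 FPKM (SD, n = 3 each). Its log2 difference was 0.011 (SE 0.16). The proteases that cut ligand-bound Notch were higher for 7 of 8, with the metalloprotease Adam10 the most abundant, at 63.1 ± 5.6 and 72.4 ± 10.8 FPKM, and the γ-secretase subunit Aph1a with the smallest p, at 19.1 ± 3.6 and 22.0 ± 2.2 FPKM. The ubiquitin ligases that act on ligands were higher for 2 of 4. Mib1 led them at 14.1 ± 4.1 and 12.8 ± 1.9 FPKM, and Mib2 measured 3.64 ± 0.95 and 3.95 ± 0.63 FPKM.

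Genes of the nuclear complex were higher for 5 of 10. Their most abundant member and smallest p was the corepressor Tle3, at 60.5 ± 12.3 FPKM in Nmd+/+ and 71.2 ± 8.7 FPKM in Nmd-/- (SD, n = 3 each), a log2 difference of 0.24 (SE 0.18). Inhibitors and endocytic regulators were higher for 6 of 9, led by Dtx3 at 64.1 ± 10.2 and 63.4 ± 11.2 FPKM, and Numbl, which holds back Notch in neural cells, measured 26.1 ± 6.0 and 30.1 ± 5.2 FPKM. Ligand-like genes were lower for 3 of 4, and Dner, a membrane protein of neurons, was the most abundant gene of the list at 116 ± 21 and 114 ± 12 FPKM. Jag2 measured 1.74 ± 0.67 and 1.49 ± 0.54 FPKM and Hey2 4.28 ± 0.45 and 3.77 ± 0.49 FPKM.

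Proneural genes, which drive Delta expression and are repressed by Hes proteins, were lower for 3 of 5 tested. Neurod1 had the smallest p, at 1.96 ± 0.31 and 1.52 ± 0.35 FPKM (SD, n = 3 each). Neurog1, Neurog3 and Atoh1 did not exceed 0.302, 0.161 and 0.121 FPKM.

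**Figure D5:**
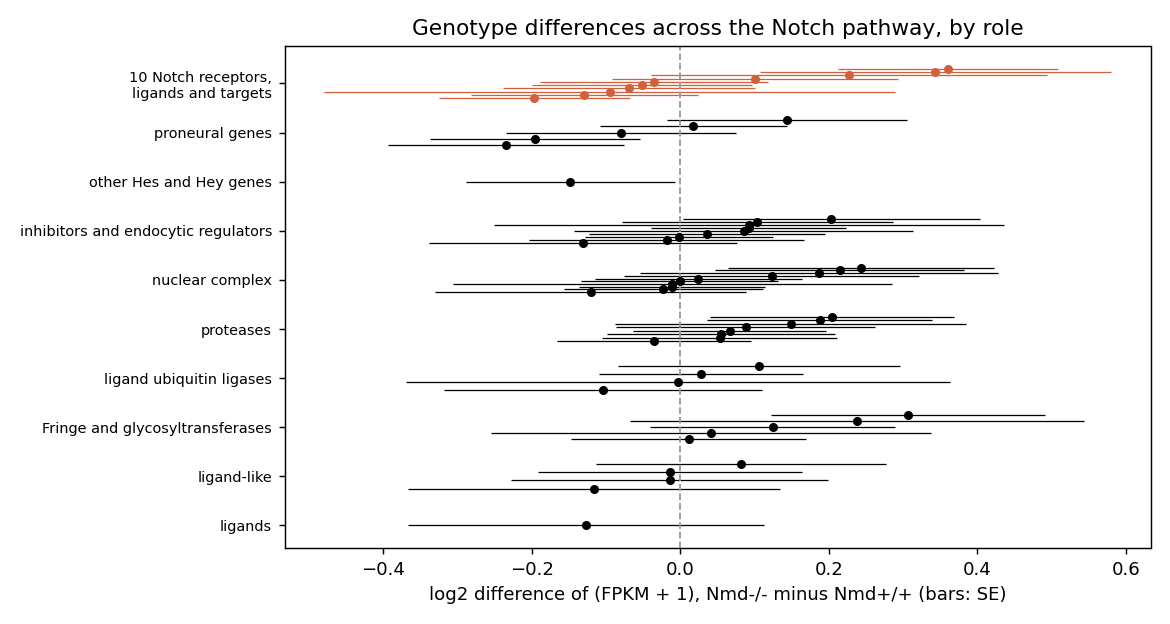
Log2 difference of (FPKM + 1), Nmd-/- minus Nmd+/+, of the 47 tested pathway genes by role (black) and of the 10 receptors, ligands and targets (orange), with SE bars. The differences of the pathway genes lie between -0.23 (Neurod1) and 0.31 (Pofut1).

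Between replicate numbers 11 of 47 pathway genes passed in limma, against 28.6% of all genes tested, and the 11 were lower in number 2 than in number 1. Among the 4173 genes that passed over all genes, 55.7% were. Dtx1, which binds the intracellular part of Notch, differed by -0.998 between numbers 2 and 1 (adjusted p = 0.00947), and Nrarp, a Notch-induced inhibitor of the pathway, by -0.46 (0.0489). The Fringe genes Rfng and Mfng, which tune the choice of ligand, differed by -0.86 and -0.85 (limma adjusted p = 0.0069 and 0.0055). Other genes that passed were Jag2 (-0.66), Cntn1 (-0.68), the ligase gene Neurl1a (-1.07), Tle4 (-0.52), Spen (-0.54) and, outside the rule for naming genes, Tle2 (-0.74).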

How the data were processed

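Total RNA of 6 primary mouse cultures was sequenced. Gene-level FPKM with interval bounds were deposited by the authors, 1 table per library; per the submitters' processing notes, FastQC 0.10.1, Trim Galore 0.4.0, cutadapt 1.8, SAMtools 1.3, Cufflinks 2.2.1 and the build GRCm38 were used. Not given in the sources used here: strand use in counting, the aligner version and the annotation release. Starts are printed from 1.

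In R 4.3.3, limma 3.58.1 with an intensity trend was fitted to log2(FPKM + 1), without rescaling, on the 14611 genes with a mean of at least 1 FPKM and an accepted status in each library. Values were adjusted by Benjamini-Hochberg over all of them, threshold 0.05, two-sided. Fold changes on this scale understate changes of low genes. Interval bounds were taken as 2 SD either side, and widths were expressed as an equivalent number of fragments, which is not a count of fragments. Intervals cover estimation error only. The exact permutation test ran over 3 against 3 log2 values. The procedure was tested on simulated data with larger changes than those of the members and a smaller spread between libraries. That test does not show whether differences as small as those of the members would be found.

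The number's term was tested with genotype in the model. Across genes, a library's deviation from its genotype's mean correlated with that of its same-numbered partner at 0.82, 0.70 and 0.39, in number order. The highest correlation with a differently numbered library of the other genotype was 0.28, 0.11 and 0.28. Over the 10 members alone the same-numbered values were 0.89, 0.69 and 0.21, so the pairing was weakest for number 3. The numbers were treated as pairing the libraries, which comes from the values, not from a label. The members and lists were chosen with earlier results of these data known. Named were the 10 members; per role of the pathway list the most abundant gene, the gene with the smallest genotype p and up to 3 past a test; and the 3 nearest profiles for 3 members. Some genes that this rule names are not reported here. Alternatives were other pseudocounts, filters and scalings, no trend, the block, and leaving out libraries. Leaving out both libraries numbered 2 in the test between numbers was chosen after seeing the data.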

Additional observations from a re-analysis of the deposited data

How the results depend on the processing

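In the 16 or, where a stricter filter removed the gene, 15 alternative settings no member passed between genotypes, with limma adjusted p from 0.327 (Notch2, without both libraries numbered 2 and with the replicate block) upward. The replicate block changed no call of a member or pathway gene between genotypes, and 0 passed with it. Notch1, Notch2, Jag1, Hes6 and Hey1 kept their direction in each setting run, and Notch2 ranged from 0.24 to 0.46. Leaving out 1 library at a time turned Dll1 (-0.155 to 0.047), Dll3 (-0.11 to 0.072), Notch3 (-0.023 to 0.30), Hes1 (-0.22 to 0.055), Hes5 (-0.44 to 0.26), Jag2 (-0.34 to 0.018), Cntn1 (-0.35 to 0.058) and Mib2 (-0.051 to 0.25). Without both libraries numbered 2, with or without the block, Notch3 was at -0.023, Dll3 at 0.063 and Mib2 at -0.089. Members with a higher mean in Nmd-/- numbered 4 to 7, members without overlap 1 to 4 and pathway genes without overlap 0 to 12 when 1 library was left out, where 4.48% to 19.2% of all genes did not overlap. Without both libraries numbered 2, with or without the block, the last 2 counts were 2 and 7 (25.3% of all genes), and with quantile normalization 2 and 1 (2.94%). The count of members that differed between numbers was 0 with no filter, where 6348 genes had an unadjusted p under 0.05 and 0 passed, and between 2 and 4 in the other settings, where 19.5% to 31% of all genes passed. Scaling moved the median of all genes from 0.017 to -0.00037 (median of ratios). Relative to the level, the widest interval of any member was that of Hes5 in Nmd+/+ replicate 2.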

Other observations

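Pathway genes below the filter were low in these cultures, as values with no test. Notch4 lay between 0.211 and 0.762 FPKM and Dll4 between 0.320 and 0.801 FPKM; both are best known from endothelial cells. Of 7 endothelial markers 1, Kdr, had a mean of at least 1 FPKM (8.97 to 16.9 FPKM). Flt1 reached 1.24 FPKM, and Cdh5 and Cldn5 did not exceed 0.604 and 0.0433 FPKM. Hes7, an oscillating gene of the somites, lay between 0.368 and 0.493 FPKM and Hes3 between 0.0446 and 0.237 FPKM. Heyl measured 2.64 and 1.29 FPKM in the Nmd+/+ and Nmd-/- libraries numbered 2 and at most 0.218 FPKM in the other 4 libraries. In those 2 libraries, in the same order, fibroblast genes summed to 143 and 176 FPKM, Schwann cell and neural crest genes to 28.8 and 12.0 FPKM, and pericyte and smooth muscle genes to 4271 and 4580 FPKM, all above the other 4 libraries; their part in the Heyl values was not tested.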
